A study of Mus musculus with 6 samples.

Results

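The GPIb-IX-V complex is the platelet receptor for von Willebrand factor, and the mRNAs of its 4 subunits, Gp1ba, Gp1bb, Gp9 and Gp5, were followed in 6 platelet RNA-seq libraries of mice labelled with a C57BL/6 background. They were taken by gene symbol from a table of 14975 genes, and all 4 were listed with 1 entry each, under Entrez gene identifiers 14723, 14724, 54368 and 14729. The 3 BMT control libraries, labelled WT, came from irradiated mice that had received normal bone marrow cells and were sampled at the same time, and the 3 pre-AML libraries, labelled AML, came from sub-lethally irradiated mice 1 week after a secondary transplantation of GFP+ cells. These cells descended from donor hematopoietic stem and progenitor cells that had been transduced with MLL-AF9 by a retrovirus in culture and grown in primary recipients. The study used female mice 8 to 12 weeks old, with CD45.1 (B6.SJL) or C57BL/6 recipients, without saying which gave the platelet RNA. Platelets had been freed of cells carrying CD45 or Ter119 by magnetic depletion, and their polyA RNA was amplified by SMART-Seq2. Sub-lethal irradiation leaves part of the host's own blood formation in place, and the study gives no dose for the BMT controls. The paper holds that nearly all platelets circulating 1 week after transplantation came from abnormal megakaryocytes. Platelets of host and donor origin cannot be told apart in these libraries. The study's text speaks of independent mice in each group, whereas the labels mention 2 replicates and pools of 3 to 4 mice, so p-values measure the spread between these libraries, whatever its source.

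In the platelet membrane, GPIbα carries the binding site for von Willebrand factor and is joined by disulfide bonds to GPIbβ, while GPIX and GPV are held without such bonds. All 4 are transmembrane proteins of the leucine-rich repeat family. GPIbα, GPIbβ and GPIX need each other to reach the surface, and loss of any of the 3 causes Bernard-Soulier syndrome, a bleeding disorder with giant platelets, whereas GPV, which thrombin cleaves, can be missing without it. Their genes are transcribed in megakaryocytes, where GATA1 and ETS family factors act on promoters of this lineage, and platelets, which have no nucleus, inherit the mRNAs.

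The bases before the annotated start of each gene are shown because the 4 genes are used in the same lineage and their promoters can be compared directly. They were read from RefSeq (GRCm38.p6) for 4 of 4 genes, on the strand of the gene and 5′ to 3′. Capitals mark the GATA word AGATAA, its variant AGATAG, the related words TGATAA and likewise TGATAG, the ETS word CAGGAAG and also its variant CCGGAAG, on either strand. For Gp1ba, Gp9 and Gp5 the last 150 bases are given, and for Gp1bb 30 bases that end 5 bases before the start, since its upstream window lies inside an exon of another gene.
Gp1ba, chr11:70638972-70639121, plus strand: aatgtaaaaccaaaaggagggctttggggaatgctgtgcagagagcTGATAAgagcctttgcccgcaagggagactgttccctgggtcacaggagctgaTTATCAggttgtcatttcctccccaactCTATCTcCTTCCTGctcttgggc
Gp1bb, chr16:18622408-18622437, minus strand: gcacctccccgcCTATCAtaagggaacaag
Gp9, chr6:87777920-87778069, plus strand: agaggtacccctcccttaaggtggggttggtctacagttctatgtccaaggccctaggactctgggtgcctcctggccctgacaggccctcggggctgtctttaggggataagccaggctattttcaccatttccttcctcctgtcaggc
Gp5, chr16:30310782-30310931, minus strand: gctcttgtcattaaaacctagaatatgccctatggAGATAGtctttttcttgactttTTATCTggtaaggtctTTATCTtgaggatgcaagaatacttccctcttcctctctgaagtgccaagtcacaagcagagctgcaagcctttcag

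In windows of 250 bases, Gp1ba and Gp5 each held 3 GATA words, Gp1bb held 1 and Gp9 held 0, with the core GATA once, 43 bases before its start. At least 1 GATA word was found in 26.5% of 32851 annotated windows of this length. An ETS word was found in Gp1ba, 16 bases before its start, next to a GATA word at 23 bases, and in 17.0% of all windows. The shorter ETS core GGAA was in all 4 windows and in 93.4% of windows in general, and the core GATA was in all 4 and in 53.6%. These matches describe letters in a window and are not measured binding sites.

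In GENCODE M21 on GRCm38, the assembly that mm10 stands for, Gp1ba lies at chr11:70639122-70642036 on the plus strand with 2718 exon bases, and Gp9 at chr6:87778072-87779768 on the plus strand with 881. Gp5 lies at chr16:30307685-30310779 on the minus strand with 2197 exon bases, and Gp1bb at chr16:18620317-18622403 on the minus strand with 2087. The genes have a compact coding structure: each has a transcript whose coding sequence lies in 1 exon, as in 12.1% of 4182 tested protein-coding genes. GC content of the exons was 51.6% for Gp1ba, 58.3% for Gp9, 59.3% for Gp5 and 62.0% for Gp1bb, against a median of 49.8% over tested genes.

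Levels are given in FPKM, a read count divided by gene length and library size, which is per length, so that levels can be compared between genes. The mRNA of Gp9 was among the most abundant in platelets, and those of Gp5 and Gp1ba were about 1 order of magnitude lower. The listed FPKM of Gp1bb was far lower still, but most of its exon bases are shared with other genes, so its level is uncertain. Gp9 stood at 6358, 6680.1 and 7243 FPKM in control 1, 2 and 3 and at 7568, 8727 and 6456 FPKM in pre-AML 1, 2 and 3. These levels placed it at rank 11 to 13 of 14975 genes. Gp5 measured 543, 514 and 629 FPKM in the controls and 604, 628 and 576 FPKM in pre-AML platelets, at rank 80 to 104. Gp1ba measured 475, 463 and 507 FPKM in the controls and 460.0, 508.5 and 341 FPKM in pre-AML platelets, at rank 107 to 125. Pre-AML 3 had the lowest Gp1ba FPKM of the 6 libraries, and also the lowest sum of FPKM over all genes (376148). Gp1bb was found at only 4.78, 3.03 and 2.42 FPKM in the controls and at 3.03, 3.02 and 2.71 FPKM in pre-AML platelets, at rank 2210 to 3012.

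**Figure D1:**
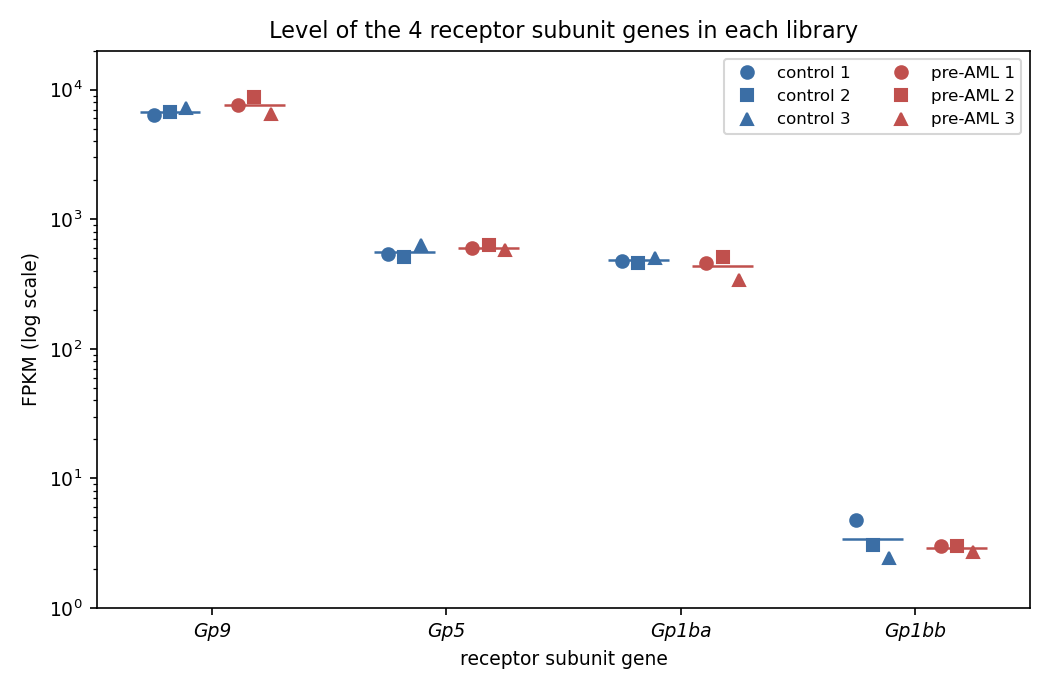
FPKM of the 4 receptor subunit genes on a log scale in each of the 3 control and 3 pre-AML libraries, with a line at the mean of each group. The order of the listed values, Gp9, Gp5, Gp1ba, Gp1bb, is the same in every library, and the groups overlap for each gene. The place of Gp1bb is uncertain, as most of its exon bases are shared with other genes.

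In listed FPKM the order Gp9, Gp5, Gp1ba, Gp1bb held in all 6 libraries, with the place of Gp1bb uncertain because of its shared exons. The neighbours Gp5 and Gp1ba were close: in control platelets Gp1ba (463 to 507 FPKM) lay below Gp5 (514 to 629 FPKM) without overlap, and in pre-AML platelets Gp1ba (341 to 508.5 FPKM) again lay below Gp5 (576 to 628 FPKM). Thus the mRNAs of subunits that are assembled together differed widely in level, and Gp9 exceeded Gp5 by a factor of 11.2 to 13.9 in every library.

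The low level of Gp1bb coincided with a feature of its locus. Of its 2087 exon bases, 1938 (92.9%) are also exon bases, on the same strand, of Septin5, which encodes a cytoskeletal septin, or of Gm49601, a readthrough gene model. For Gp1ba, Gp9 and Gp5 the shared part was 0%. The 149 bases of Gp1bb that belong to no other gene lie at its 3′ end, at chr16:18620317-18620465. Septin5 itself was low, at 2.27, 1.37 and 1.32 FPKM in the controls and 1.55, 1.95 and 0.876 FPKM in pre-AML platelets, so neither of the genes that share these exons was listed at a high level. Its FPKM values came out as whole reads with a length of 5139 bases, which equals the union of the exons of Septin5 and Gm49601.

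**Figure D2:**
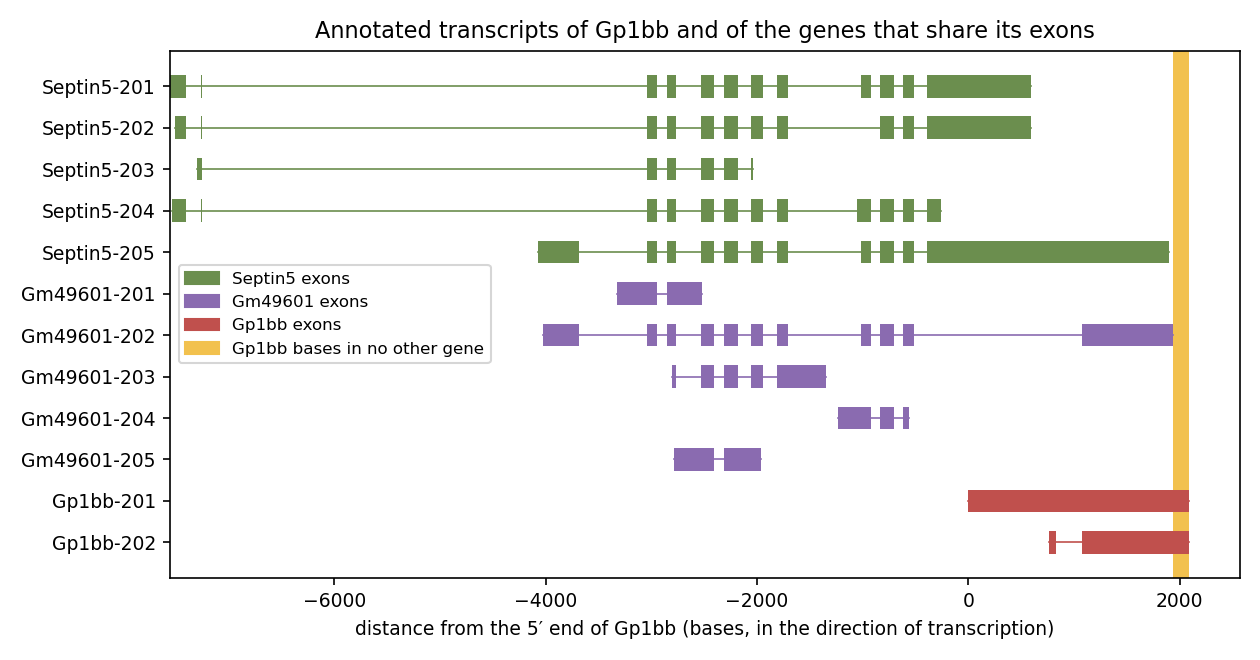
Annotated transcripts of Septin5, Gm49601 and Gp1bb in GENCODE M21, drawn to scale by distance in bases from the 5′ end of Gp1bb. Boxes are exons, lines are introns, and the shaded band marks the 149 bases of Gp1bb outside the other genes, at the 3′ end.

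Among 9 listed genes with at least 80% of their exon bases shared on the same strand with another listed gene, the median level was 0.0215 FPKM and Gp1bb was the highest. The median was 0.196 FPKM among 104 genes sharing 10% to 80% and 0.244 FPKM among 14797 genes sharing under 10%. The sources used here do not name the counting program, so whether reads on shared bases were left out was not tested, and the level of Gp1bb is uncertain. If its reads came from the 149 unshared bases alone, Gp1bb would stand at 66.9, 42.4 and 33.8 FPKM in the controls and at 42.4, 42.3 and 38.0 FPKM in pre-AML platelets. On that length Gp9 would exceed it 95.04- to 214-fold and Gp1ba 7.10- to 14.97-fold. This takes all 149 bases as countable, without regard to read length, so the place of Gp1bb in the order is not settled by it.

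The reads behind the levels set their precision. From the FPKM values and exon lengths, 65746 to 132690 reads per library were recovered for Gp9, 15155 to 21612 for Gp1ba, 14010 to 29532 for Gp5, and only 60 to 132 for Gp1bb. For Gp1bb, counting alone gives a coefficient of variation of 8.70% to 12.9% in a library, while for the other 3 genes it gives 0.275% to 0.845%. The libraries held 11936180 to 17779244 recovered reads on listed genes. Pre-AML 3 was the deepest, and its FPKM values summed to 376148, against 508605 to 541784 in the other 5 libraries.

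Next, control and pre-AML platelets were compared to ask whether the receptor mRNAs had changed 1 week after transplantation. No subunit passed the test: 0 of 4 members had an adjusted p under 0.05 (limma-trend on log2(FPKM + 1), Benjamini-Hochberg over 4412 genes), where 0.0227% of all tested genes did, which is 1 gene, Gzma, named after its value was seen. At an unadjusted p under 0.05 the count was again 0 of 4, and 9.09% of tested genes had such an unadjusted p (2.56% higher and 6.53% lower). In the deposited scaling the control and pre-AML ranges overlapped for 4 of 4 members, whereas 18.9% of tested genes did not overlap (6.14% higher and 12.8% lower). Overlap was not counted under another scaling.

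For Gp1ba, the ligand-binding subunit, the mean was 481.5 ± 22.5 FPKM in the controls and 436 ± 86.3 FPKM in pre-AML platelets (SD, n = 3 each). The log2 fold change was -0.16 (SE 0.17, 95% interval -0.55 to 0.22, adjusted p = 0.697 from limma). Without pre-AML 3 it was 0.0072, so the direction rested on that library. In the deposited scaling the coefficient of variation of Gp1ba was 19.8% in pre-AML platelets, against 4.66% in control platelets. The former includes pre-AML 3, whose FPKM values summed to 376148, against 508605 to 541784 in the other 5 libraries. It was not computed under another scaling.

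For Gp1bb, its disulfide-linked partner, the means were 3.41 ± 1.22 and 2.92 ± 0.179 FPKM (SD, n = 3 each), with a log2 fold change of -0.14 (SE 0.20, 95% interval -0.60 to 0.33, adjusted p = 0.793 from limma). Control 1 was the highest of the 6 libraries, and without it the value turned to 0.077.

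For Gp9, which encodes the small subunit GPIX, the means were 6760.4 ± 448 FPKM in the controls and 7583 ± 1136 FPKM in pre-AML platelets (SD, n = 3 each). The log2 fold change was 0.16 (SE 0.14, 95% interval -0.17 to 0.48, adjusted p = 0.650 from limma). Pre-AML 1 and 2 lay above all controls, while pre-AML 3 lay between control 1 and control 2. Without pre-AML 3 the log2 fold change was 0.27, with an unadjusted p of 0.0225 and an adjusted p of 0.553 from limma.

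For Gp5, the thrombin-cleaved subunit, the means were 562 ± 60.0 and 603 ± 26.1 FPKM (SD, n = 3 each), with a log2 fold change of 0.11 (SE 0.13, 95% interval -0.20 to 0.41, adjusted p = 0.744 from limma). The pre-AML libraries lay within the range of the controls. The intervals of all 4 members include 0, and the widest, that of Gp1bb, runs from -0.60 to 0.33. Changes inside the interval of a gene cannot be told from 0 with 3 libraries a group. The calls were adjusted over 4412 genes, so larger changes could also go uncalled.

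**Figure D3:**
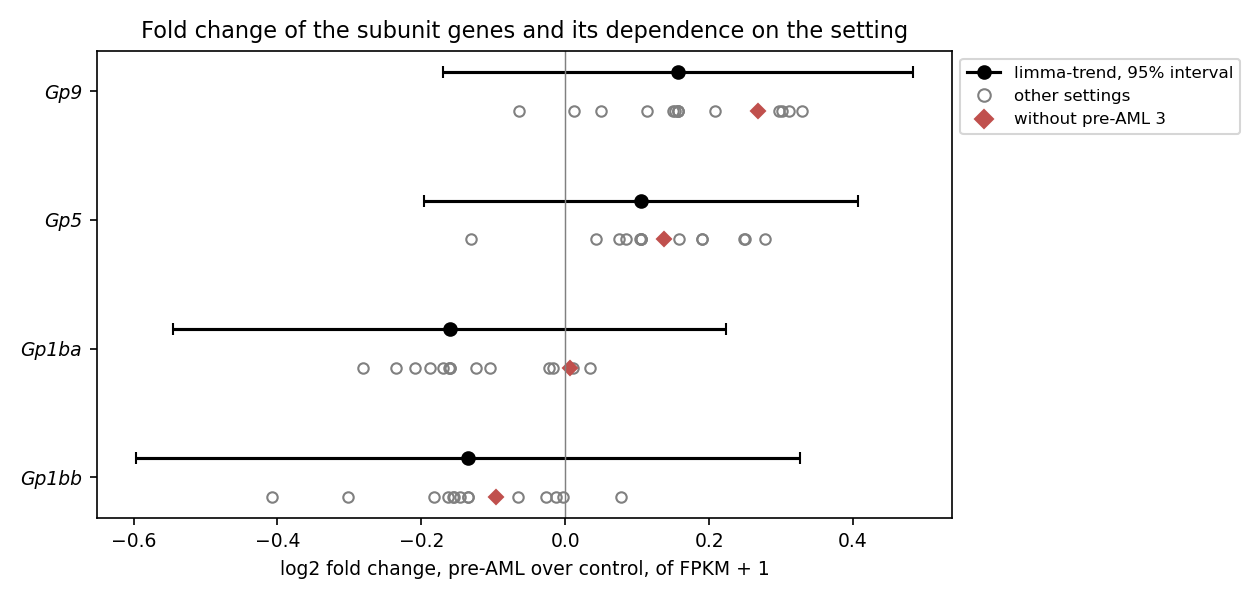
Log2 fold change of each subunit gene, pre-AML over control, with its 95% interval from limma-trend (black), under the other settings (open circles) and without pre-AML 3 (diamonds). All 4 intervals include 0, and Gp1ba moves from -0.16 to 0.0072 without pre-AML 3.

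The values depend on how the libraries are scaled. The median log2 fold change of all tested genes was -0.055 with the deposited scaling and 0.081 with libraries scaled to the same sum of FPKM. Relative to this median, Gp9 stood at 0.21 and 0.25, Gp5 at 0.16 and 0.20, Gp1ba at -0.11 and -0.070, and Gp1bb at -0.080 and -0.084 under the 2 scalings. With the same sum of FPKM, the log2 fold change of Gp9 was 0.33, with an unadjusted p of 0.0136 and an adjusted p of 0.428 from limma. With limma-voom on recovered reads it was 0.30, with an unadjusted p of 0.0111 and an adjusted p of 0.407.

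Ratios between subunits within a library do not depend on that scaling. Gp9 exceeded Gp1ba 13.4-, 14.4- and 14.3-fold in control 1, 2 and 3, and 16.5-, 17.2- and 18.9-fold in pre-AML 1, 2 and 3. All pre-AML ratios lay above all control ratios. On the log2 scale the ratio of Gp1ba to Gp9 differed by -0.32 between the groups, with a pooled SD of 0.085 (p = 0.1 in an exact two-sided permutation test, below which 3 against 3 libraries cannot go). The groups also did not overlap without pre-AML 3, with a difference of -0.26. Such a separation was common in these libraries: among 64261 pairs of the 359 genes averaging 100 FPKM or more, 37.6% had ratios that did not overlap between the groups, so it is not particular to Gp1ba and Gp9. Once trends with GC content and exon length were removed, the difference was -0.17, still without overlap.

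The ratio of Gp1ba to Gp5 was 0.874, 0.902 and 0.805 in control and 0.761, 0.809 and 0.592 in pre-AML platelets. The groups overlapped by a narrow margin, with pre-AML 2 above control 3, and the log2 difference was -0.27 (exact two-sided permutation test, p = 0.2). Gp9 exceeded Gp5 11.7-, 13.01- and 11.5-fold in control and 12.5-, 13.9- and 11.2-fold in pre-AML platelets, a log2 difference of 0.051 (exact two-sided permutation test, p = 0.7). Gp9 and Gp5 thus kept nearly the same ratio, with overlapping groups and a pooled SD of 0.13.

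**Figure D4:**
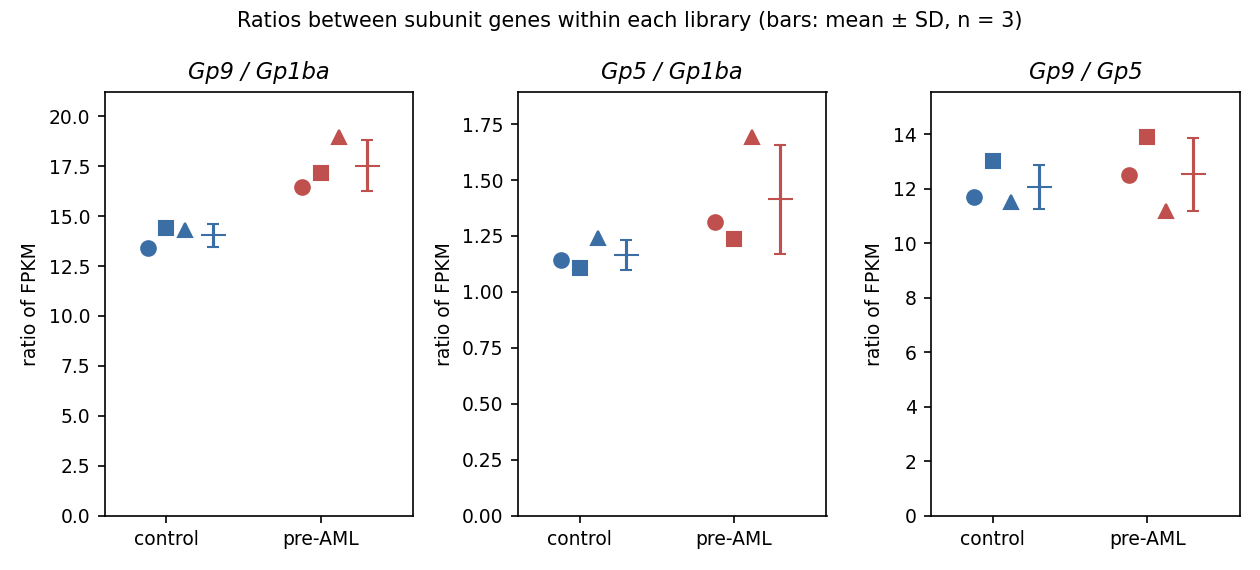
Ratio of FPKM between Gp9 and Gp1ba, Gp5 and Gp1ba, and Gp9 and Gp5 in each library, with circles, squares and triangles for libraries 1, 2 and 3 and the mean and SD of each group beside them. The Gp9 to Gp1ba ratio runs from 13.4 to 14.4 in control and from 16.5 to 18.9 in pre-AML platelets, while the other 2 ratios overlap.

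The 3 ratios with Gp1bb were wide, and its reads numbered only 60 to 132 per library. Its level is uncertain because of its shared exons, and over its unshared bases alone Gp1ba would exceed it 7.10- to 14.97-fold. The ratios that follow use the listed FPKM. Gp1ba exceeded Gp1bb 99.5-, 153- and 210-fold in control and 152-, 169- and 126-fold in pre-AML platelets, a log2 difference of 0.0053 with a pooled SD of 0.41 (exact two-sided permutation test, p = 1.0). For Gp1bb to Gp9 the log2 difference was -0.32 (exact two-sided permutation test, p = 0.5), and for Gp1bb to Gp5 it was -0.27 (exact two-sided permutation test, p = 0.6), both with overlapping groups. Of the 6 ratios, only that of Gp1ba to Gp9 had groups without overlap, and with 3 against 3 libraries this permutation test cannot give a p under 0.1 for any of them.

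The way each subunit varied over the 6 libraries was then compared with that of other genes, as the root mean square difference of log2(FPKM + 1) centred on its mean. For Gp5, the nearest of 1515 genes averaging 10 FPKM or more were Cnp, which encodes a phosphodiesterase, at 0.023, Itga2b, which encodes the platelet integrin αIIb, at 0.031, and Tmem250-ps at 0.039. For Gp9 they were Phf5a, which encodes a splicing factor subunit, at 0.034, Tspo, which encodes a mitochondrial outer membrane protein, at 0.037, and Trak1 at 0.042. For Gp1ba they were Ino80c at 0.043, Smim3 at 0.044 and Mapk6 at 0.045, which without pre-AML 3 fell to ranks 36, 37 and 27. For Gp1bb they were Rps21 at 0.060, Etfb at 0.076 and G6pc3 at 0.081. No subunit was among the 3 nearest of another, but Gp1bb, with a mean of 3.16 FPKM, was too low to be a candidate. The closest pair of subunits was Gp9 and Gp5 at 0.108, where Gp5 took rank 128 for Gp9 and Gp9 rank 181 for Gp5, while Gp1ba and Gp5 were 0.198 apart. These distances cover 6 libraries that share scaling and group, and are given as a description.

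Genes beside the subunits on the chromosome were low in the same libraries. Slc25a11, which encodes a mitochondrial carrier 2159 bases from Gp1ba, measured 5.57 to 9.002 FPKM, and Rab43, 9084 bases from Gp9, measured 0.219 to 0.655 FPKM. Beside Gp5, Atp13a3 at 1643 bases measured 0.0267 to 0.111 FPKM, and Lrrc15 at 24428 bases reached at most 0.0633 FPKM. The high levels of Gp1ba, Gp9 and Gp5 were therefore not shared by these neighbours.

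Other genes of the receptor's pathway were described by role, with calls at an adjusted p under 0.05 from limma-trend. The same lists held 0 calls with limma-voom on recovered reads. Of 6 genes for ligands of GPIbα, 3 were tested and 0 were called, also at an unadjusted p under 0.05. Vwf, which encodes von Willebrand factor itself, measured 83.2, 69.8 and 87.1 FPKM in the controls and 78.5, 95.6 and 69.2 FPKM in pre-AML platelets. The groups overlapped, with a log2 fold change of 0.013 (limma, adjusted p = 0.980), and of 0.12 without pre-AML 3. Thbs1, for thrombospondin 1, and Selp, for P-selectin, had log2 fold changes of -0.10 and -0.063, and of -0.0049 and -0.076 without pre-AML 3. F11, F12 and Kng1 were not analysed here.

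Of 17 genes for proteins that bind the cytoplasmic tails or signal from them, 17 were tested and 0 were called in either direction, with 0 at an unadjusted p under 0.05. Their median log2 fold change was -0.14, against -0.055 over all tested genes, and without pre-AML 3 it was -0.044 against -0.021. The most abundant was Fcer1g, the Fc receptor γ chain, with a log2 fold change of -0.10, followed by Ywhah, for the 14-3-3 protein η, at -0.20. Without pre-AML 3 these were 0.035 and -0.11. Ywhaz, for the 14-3-3 protein ζ that binds the tail of GPIbα, had a value of -0.20 and Flna, for filamin A, which ties the receptor to actin, -0.14, and without pre-AML 3 these were -0.030 and -0.044. In 2 of the 17, Calm2 (calmodulin) and Lyn (a Src family kinase), the pre-AML libraries lay below all controls in the deposited scaling, where 12.8% of all tested genes did. For Lyn the margin was narrow, with 201.6 FPKM in pre-AML 2 against 201.9 FPKM in control 2. Whether these groups overlap under another scaling was not tested. Calm2 measured 993, 991 and 925 FPKM in the controls and 914, 777 and 558 FPKM in pre-AML platelets, with a log2 fold change of -0.40 (limma, adjusted p = 0.522), and of -0.20 without pre-AML 3.

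Of 4 genes for the metalloproteases that shed GPIbα and GPV and for their helpers, 3 were tested, 0 were called, and 1 was lower at an unadjusted p under 0.05. Adam17, the main sheddase of GPIbα, was low, at 2.47, 1.04 and 2.11 FPKM in the controls and 2.08, 2.04 and 1.84 FPKM in pre-AML platelets, with overlapping groups and a log2 fold change of 0.090. Adam10 measured 36.6, 28.3 and 31.1 FPKM in the controls and 27.2, 25.6 and 18.3 FPKM in pre-AML platelets, with no overlap. Its log2 fold change was -0.43 (unadjusted p = 0.0440 and adjusted p = 0.522 from limma), and 6.53% of tested genes were lower at this unadjusted level. Without pre-AML 3 it was -0.26.

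Of 9 genes for transcription factors of the lineage, 6 were tested and 0 were called, at an unadjusted p under 0.05 as well, with a median log2 fold change of -0.0063, and of 0.092 without pre-AML 3. The most abundant were Nfe2 at 0.031 and Gata1 at -0.043 on the same scale, with overlapping groups, and without pre-AML 3 they stood at 0.10 and 0.081. Fli1, an ETS factor, had a value of -0.18, or -0.098 without pre-AML 3, and the groups overlapped as well.

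Among 15 other surface receptors of platelets, 14 were tested, 0 were called, and 2, Itga2 and Itgb1, were lower at an unadjusted p under 0.05, where 6.53% of all tested genes were. Their median log2 fold change was -0.23, and -0.10 without pre-AML 3. The median of the 4 subunits, of which 2 had a positive value, was -0.015, and 0.073 without pre-AML 3. Over all tested genes the medians were -0.055 and -0.021. In the deposited scaling the pre-AML libraries lay below all controls in 4 of the 14, beside 12.8% of all tested genes. These were Itga2 and Itgb1, which form the collagen-binding integrin α2β1, Gp6, the collagen receptor GPVI, and Cd226. The count was not made under another scaling. Gp6 measured 152, 139 and 154 FPKM in the controls and 126, 129 and 82.9 FPKM in pre-AML platelets, with a log2 fold change of -0.43 (limma, adjusted p = 0.522), and of -0.22 without pre-AML 3. The most abundant, Cd9, a tetraspanin, had a value of -0.017, which turned to 0.17 without pre-AML 3, and Itga2b had a value of 0.12. Whether the receptors as a list differ from the subunits was not tested.

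**Figure D5:**
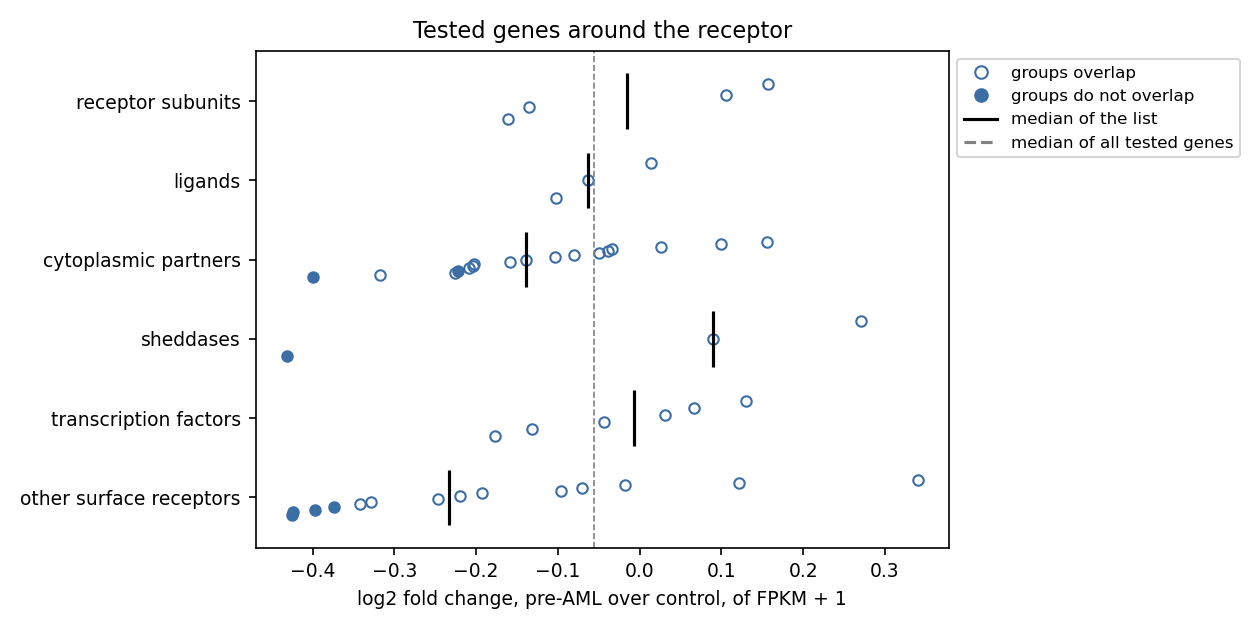
Log2 fold change, pre-AML over control, of every tested gene in the lists around the receptor, with the median of each list (black line) and of all tested genes (dashed line, -0.055). Filled points mark genes whose groups do not overlap in the deposited scaling. They include 0 of 4 subunits and 4 of 14 other surface receptors, beside 18.9% of all tested genes.

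The libraries were checked for their labelled cell type and for RNA of other cells, with pre-AML 3 standing apart. All 15 platelet markers were listed, and Pf4 (platelet factor 4) led with 38150 to 79255 FPKM. The sum of the platelet markers was 102826 to 128773 FPKM in the controls and 66729 to 104296 FPKM in pre-AML platelets, and 11 of 15 were lower in pre-AML 3 than in all controls. The FPKM values of pre-AML 3 summed to 376148 over all genes, against 508605 to 541784 in the other 5 libraries. The marker sums and counts therefore hold for the deposited scaling, and the share of all genes lower in pre-AML 3 was not counted. Pre-AML 3 also had the most genes above 0, 13571 against 11301 to 12609 in the other 5 libraries. Of 12 leukocyte markers, 10 were higher in pre-AML 3 than in all controls, and the share of all genes higher there was not counted. The sum of these markers was 3156 to 3400 FPKM in the controls and 3263 to 4306 FPKM in pre-AML platelets, most of it from Lyz2 and Laptm5. Tyrobp, a signalling adaptor of myeloid cells, measured at most 0.533 FPKM in the controls and 4.85, 4.37 and 153 FPKM in pre-AML 1, 2 and 3, and C1qa, listed at 0 in 2 of 3 controls, measured 54.1 FPKM in pre-AML 3. Neutrophil markers summed to 2.01 to 2.98 and 0.661 to 3.34 FPKM in the 2 groups, with Mpo and Elane listed at 0 in all controls. Of 7 erythroid markers 5 were listed, with sums of 2350 to 2652 and 2377 to 2991 FPKM, and endothelial markers summed to 55.6 to 62.4 and 56.1 to 64.3 FPKM. The low Gp1ba level of pre-AML 3 was likewise read in the deposited scaling. With libraries scaled to the same sum of FPKM, the log2 fold change of Gp1ba was 0.011. The part of scaling and of other cells' RNA in that level was not tested. Fewer platelets of a kind and less mRNA per platelet cannot be told apart in pooled RNA.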

How the data were processed

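The authors mapped reads to mm10 with STAR, used DESeq2, and deposited FPKM values for 14975 genes in 6 libraries (3 BMT control, 3 pre-AML). Tool and build names follow the submitters' processing notes. The counting program and annotation are not given in the sources used here. The members, gene lists and tests were chosen with earlier results of these data known.

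FPKM values are not counts, so log2(FPKM + 1) of the 4412 genes averaging 1 FPKM or more was tested by limma-trend in R 4.3.3 (limma 3.58.1), with group as the only term and p-values adjusted after Benjamini and Hochberg (0.05). Subunit ratios used no pseudocount and exact permutation tests (Python 3.11.15, scipy 1.17.1). Reads were recovered from FPKM, exon lengths of GENCODE M21 (14910 genes) and library size: 82.9% of values above 0 came out whole within 0.05 reads, and 12214 genes in all 6 libraries. Intervals and counting errors leave out biological spread other than that between libraries. The size behind the FPKM values over the recovered reads was 0.983 to 1.01 in 5 libraries but 1.31 in pre-AML 3.

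Named were the 4 members, genes of the lists by level, the nearest annotated neighbours, and the 3 genes nearest in profile to each member. List genes without overlap between groups, and single markers, were picked after their values were seen. Replicate numbers were not taken as a pairing of the samples in the main test. Alternatives were a pseudocount of 0.1 (1 for ratios), no filter, scaling to the same sum of FPKM or to the platelet markers, quantile normalization, the replicate block, array weights and leaving out each library. Removal of GC and length trends and limma-voom on recovered reads were added after seeing the data. The test was checked on simulated data with 4-fold changes in 177 of 4329 genes, of which 177 were called, beside 7 false calls. Changes as small as those of the subunits, and the scaling of pre-AML 3, were not simulated.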

Additional observations from a re-analysis of the deposited data

How the results depend on the processing

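The 4 subunits had no adjusted p under 0.05 in any of the 16 fits, limma-trend and limma-voom, with adjusted p-values from 0.195 upwards. With 1 gene called (Gzma), 0 were called without a filter on low values (at an unadjusted p under 0.05, 497 higher and 373 lower), with libraries scaled to the same sum of FPKM (275 and 194), scaled to the platelet markers (274 and 196) and with limma-voom (231 and 259), and 2 with array weights (Gzma and Rgcc). Leaving out each library gave 0 to 2 calls: 0 without control 1 or control 3, and 2 (Gzma and Tyrobp) without pre-AML 3.

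The log2 fold change of Gp1ba turned to 0.011 with the same sum of FPKM and to 0.034 with array weights, and ran from -0.28 to 0.0072 over the libraries left out. For Gp9 it was 0.30 with an unadjusted p of 0.0134 when scaled to the platelet markers, 0.30 with 0.0111 in limma-voom, and 0.31 with 0.0089 with array weights. Removing GC and length trends gave -0.064 for Gp9 and -0.13 for Gp5; the cause was not tested. Leaving out each library gave -0.30 to 0.077 for Gp1bb, 0.050 to 0.27 for Gp9 and 0.043 to 0.19 for Gp5.

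The log2 difference of the Gp1ba to Gp1bb ratio was -0.025 with a pseudocount of 1 and ran from -0.28 to 0.26 over the libraries left out. The same ranges were -0.57 to 0.023 for Gp1bb to Gp5, -0.025 to 0.13 for Gp9 to Gp5, -0.36 to -0.26 for Gp1ba to Gp9, -0.36 to -0.13 for Gp1ba to Gp5 and -0.59 to -0.0068 for Gp1bb to Gp9. With 3 libraries a group the exact permutation test of the ratios cannot go below 0.1.

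Libraries with the same replicate number did not deviate together from their group means (correlations of -0.043, -0.12 and -0.17). With 3 libraries a group this check cannot exclude that they were handled together. With the replicate number as a block 1 gene was called, and the adjusted p-values were 0.806 for Gp1ba, 0.837 for Gp1bb, 0.780 for Gp9 and 0.861 for Gp5.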
